A study of Mus musculus with 100 samples.

Results

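The dosage of chromosome 8 was followed in 5 mouse pluripotent lines through 534 genes of that chromosome. These members were chosen by measured values: of the 1205 genes listed on chromosome 8, they are the 534 whose log2 level lay above 2 in all 12 libraries of the induced pluripotent stem cell (iPSC) lines, female (F KSR2, F KSR4) or male (M KSR3, M KSR5). A level here is the log2 of reads scaled to library size (RPM), not corrected for gene length, so that it compares libraries and not genes. The same rule kept 8314 genes of the other 18 autosomes, which served as the baseline, and the whole table holds 25965 genes. Ankle1, with a lowest level of 2.03, and Mmaa, with 2.07, lay just inside the threshold, and Pard6a, with 1.99, and Pdp2, with 1.97, just outside it. Chromosome 8 itself was picked for its levels, so that the chromosome values below are a description and carry no test.

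Gain of a whole autosome is a known kind of culture-acquired change in mouse pluripotent cells, and chromosome 8 is among those most often described. An extra copy adds template for every gene of the chromosome at once, so that its footprint in RNA is a modest shift shared by many unrelated genes. In F1 hybrid cells the parental strains differ at many single bases, so that the share of reads from each parent tells which copy lies behind such a shift.

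RNA was sequenced from 18 libraries, 3 biological replicates in each of 6 groups. Female MEFs are embryonic fibroblasts of F1 hybrid embryos from an i4F-BL6 mother, which carries a doxycycline-inducible Oct4, Sox2, Klf4 and c-Myc cassette on the C57BL/6J background and the rtTA activator in Rosa26, and a CAST father. The lines F KSR2 and F KSR4, both female, and M KSR3 and M KSR5, both male, were reprogrammed by doxycycline from such MEFs of a single embryo per sex, in medium with knockout serum replacement (KSR) and LIF. Each line was expanded on feeders from a single picked colony, so that a line is a clone and its replicates share that clone. TX 2i are female TX1072 embryonic stem cells, hybrids of the same parental strains, grown in medium with fetal bovine serum, LIF and the 2i inhibitors of MEK and GSK3, so that their base medium also differed from that of the iPSC lines. All cells were F1 hybrids with BL6 as the maternal and CAST as the paternal genome. Each line stands for 1 clone, and line, sex and, for TX 2i, medium and cell origin cannot be told apart as sources of a difference.

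The libraries held 13183036 to 17921280 reads on genes, and between 121957 and 205755 allelic reads per library fell on the members. The 3 replicates of a group differed by more than counting noise, by a median squared difference of 2.89 to 60.2 times that noise, and the widest spread was among the F KSR4 libraries, with 42.4 to 60.2. A list of 15 fibroblast markers summed to 0.0704 to 0.276% of its MEF level in 14 of the pluripotent libraries and to 0.760% in M KSR5 replicate 3, while 7 pluripotency markers outside chromosome 8 summed to 76.4 to 144% of their F KSR2 level in the pluripotent libraries and to at most 0.0663% in MEFs. A list of 9 germ layer markers summed to 157 to 193% of its F KSR2 mean in M KSR3, against 64.2 to 161% among the F KSR2 libraries and 30.8 to 134% in the other pluripotent groups. In such bulk samples a smaller share of cells with a change and a smaller change in every cell cannot be told apart.

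The promoters of 3 members are shown for the genes that the later paragraphs return to. The genes Slc25a4, which encodes the ADP/ATP carrier of the inner mitochondrial membrane, Got2, the mitochondrial aspartate aminotransferase, and Coq9, a coenzyme Q biosynthesis protein, are the members of a list of 7 mitochondrial genes that lay above every F KSR2 library in all 12 libraries of the other lines. Of the 534 members, 327 matched promoters of the RefSeq table (build GRCm38.p6) by symbol, with 408 promoters. The 250 bases before each start site are printed 5′ to 3′, with capitals for the CCAAT box (CCAAT), the GC box (GGGCGG) and the TATA box (TATAAA), searched on both strands.
Slc25a4, chr8:46211063-46211312, minus strand: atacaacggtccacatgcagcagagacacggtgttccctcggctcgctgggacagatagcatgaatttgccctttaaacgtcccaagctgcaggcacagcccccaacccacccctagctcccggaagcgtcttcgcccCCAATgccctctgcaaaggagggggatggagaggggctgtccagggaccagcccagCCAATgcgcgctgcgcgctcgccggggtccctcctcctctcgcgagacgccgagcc
Got2, chr8:95888402-95888651, minus strand: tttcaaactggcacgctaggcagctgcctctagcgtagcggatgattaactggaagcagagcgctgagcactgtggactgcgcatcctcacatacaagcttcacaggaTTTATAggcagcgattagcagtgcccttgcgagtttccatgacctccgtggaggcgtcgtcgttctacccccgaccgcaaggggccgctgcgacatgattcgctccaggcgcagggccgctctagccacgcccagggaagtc
Coq9, chr8:94838163-94838412, plus strand: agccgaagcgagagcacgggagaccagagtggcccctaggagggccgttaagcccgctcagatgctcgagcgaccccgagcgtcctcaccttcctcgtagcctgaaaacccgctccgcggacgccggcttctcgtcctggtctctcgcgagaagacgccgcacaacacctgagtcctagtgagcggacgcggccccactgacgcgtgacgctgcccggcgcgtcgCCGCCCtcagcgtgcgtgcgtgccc
Slc25a4 held 2 matches to the CCAAT box, Got2 a single match to the TATA box and Coq9 a single match to the GC box. The matches in Got2 (TTTATA) and Coq9 (CCGCCC) lie on the opposite strand. Whether any of these matches acts as a promoter element was not tested. The 250 bases held 18 CG dinucleotides in Slc25a4, 19 in Got2 and 34 in Coq9, against a median of 18 (quartiles 11 and 25) over the 408 member promoters and 6 (quartiles 2 and 16) over all 32851 promoters of the table. The GC box was found in 61.3% of the member promoters and 32.7% of all promoters, the CCAAT box in 36.3% and 33.8%, and the TATA box in 6.13% and 12.4%. Different motifs overlapped in 0.362% of all promoters. The members are genes expressed in all 12 iPSC libraries and the table also holds silent genes, so that these shares describe the members and compare nothing about dosage.

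Chromosome 8 stood above the other autosomes in F KSR4, M KSR3 and TX 2i and, more weakly, in 2 of the 3 M KSR5 libraries. The relative level of a library is the median log2 difference of the 534 members from their F KSR2 mean, minus the same median over the 8314 genes of the other autosomes. For orientation, 3 copies in place of 2 in every cell correspond to 0.58, provided that RNA follows copy number. The authors counted chromosomes in dividing cells of each iPSC line used here and reported a normal karyotype. Their rule called a line normal if the majority of its counted cells held the usual chromosome number. TX 2i was not among the lines counted. Copy number itself was not tested here. F KSR2, the reference, stood at -0.01, -0.02 and 0.02 in replicates 1, 2 and 3, which is its spread between libraries. In F KSR4 the relative level was 0.49, 0.46 and 0.21, with a mean of 0.39 ± 0.15 (SD, n = 3). M KSR3 was the most even line, with 0.50, 0.49 and 0.50 and a mean of 0.50 ± 0.01 (SD, n = 3). M KSR5 stood at 0.31, 0.32 and 0.05, with a mean of 0.22 ± 0.15 (SD, n = 3), and its replicate 3 was the closest to F KSR2 of the 12 libraries. TX 2i had 0.54, 0.54 and 0.49, with a mean of 0.52 ± 0.03 (SD, n = 3). No library of the other 4 groups overlapped with F KSR2, and no library reached 0.58. As a fold, the mean was 1.44 for TX 2i, 1.41 for M KSR3, 1.31 for F KSR4 and 1.17 for M KSR5. Replicate 3 of F KSR4 lay below and replicate 1 of F KSR4 within 0.01 of the M KSR3 libraries, and the ranges of F KSR4 and M KSR5 overlapped, so that the order of these lines is not resolved beyond M KSR3 and TX 2i standing above M KSR5.

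**Figure D1:**
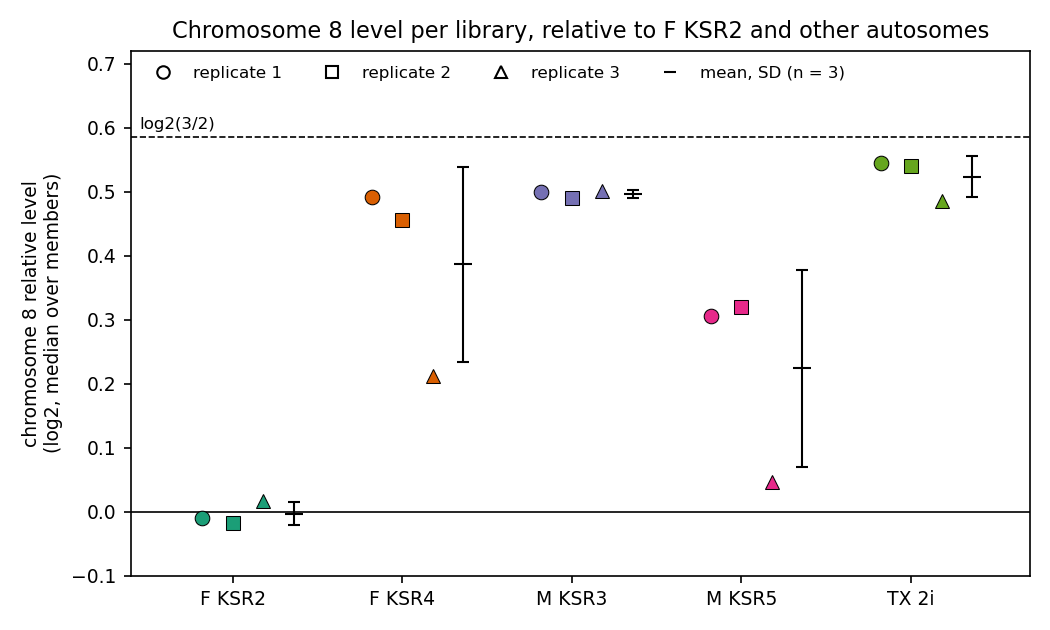
Relative level of chromosome 8 (log2, vertical axis) in each pluripotent library, 3 replicates per group as circle, square and triangle, with the mean and SD beside them; the dashed line marks log2(3/2). F KSR2 lies around 0, M KSR3 at 0.49 to 0.50 and TX 2i at 0.49 to 0.54, whereas replicate 3 of F KSR4 (0.21) and of M KSR5 (0.05) lie below the other replicates of their lines.

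The shift was carried by most members and not by a few. In M KSR3, 468 to 470 of the 534 members (87.6 to 88.0%) lay above the baseline of their library, where by construction 50.0% of the genes of the other autosomes do. TX 2i had 450 to 465 members above it, and F KSR4 464, 403 and 344. In M KSR5 the number was 433 and 428 in replicates 1 and 2 and 295, or 55.2%, in replicate 3. The middle 50.0% of the members ran from 0.24 to 0.73 in M KSR3 replicate 1 and from -0.18 to 0.25 in M KSR5 replicate 3, against -0.26 to 0.29 and -0.23 to 0.23 for the genes of the other autosomes in the same libraries. Split by mean level over the 15 pluripotent libraries into equal groups of 178, the members gave means of 0.51, 0.52 and 0.47 in M KSR3 from the lowest to the highest group, 0.34, 0.39 and 0.39 in F KSR4, 0.23, 0.19 and 0.25 in M KSR5, and 0.46, 0.56 and 0.50 in TX 2i. Each group of members was shifted in each of these lines.

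Among the 19 autosomes, chromosome 8 ranked highest or next to highest in every library of F KSR4, M KSR3 and TX 2i and in replicates 1 and 2 of M KSR5, and stood at rank 5 in M KSR5 replicate 3. The autosomes without a known imbalance, a set taken from earlier results of these data that leaves out chromosomes 1, 4, 6, 8, 11, 12, 15 and 16, ranged from -0.17 to 0.14 over these libraries. The autosomes that stood as high as chromosome 8 were chromosome 1 in M KSR3 (0.47 to 0.51), chromosome 15 in M KSR5 and chromosome 16 in TX 2i (0.50 to 0.55). In M KSR5, chromosome 15 stood at 0.47, 0.44 and 0.16, so that chromosomes 8 and 15 were both lowest in replicate 3, the pluripotent library with the highest fibroblast marker sum (0.760% of the MEF level, with 1 of the 15 markers at 0 reads). The part of such cells in these values was not tested.

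**Figure D2:**
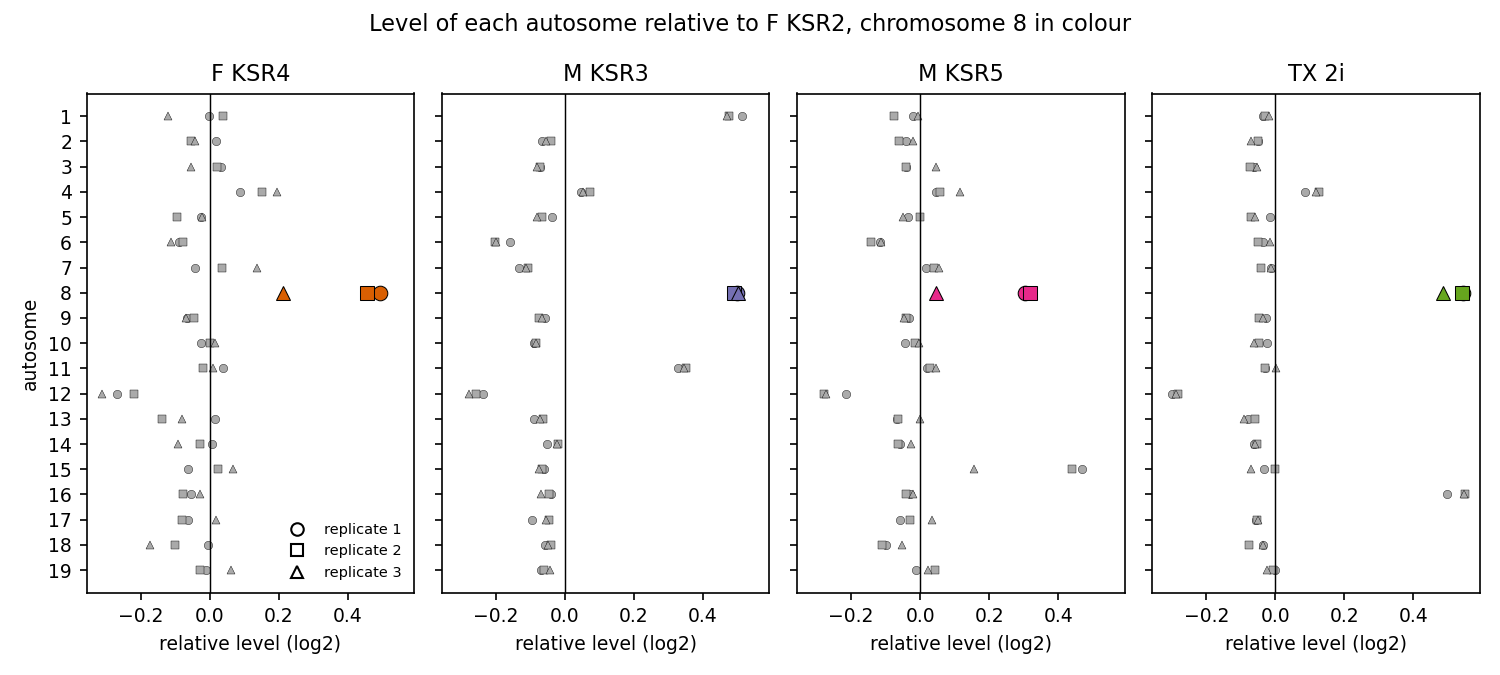
Relative level (log2, horizontal axis) of each autosome (vertical axis) in the 3 libraries of F KSR4, M KSR3, M KSR5 and TX 2i, each autosome measured against all others with F KSR2 as reference; chromosome 8 is coloured and the rest are grey. Chromosome 8 lies at 0.49 to 0.50 in M KSR3 beside chromosome 1, and at 0.31, 0.32 and 0.05 in M KSR5, where chromosome 15 has its low value in the same library.

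The parental origin of the reads differed between lines with similar levels. The maternal share is the percentage of BL6 reads among the allelic reads of the members, and it was even in MEFs, with 51.5, 51.6 and 51.8%, and in F KSR2, with 51.0, 51.3 and 50.6%. From the F KSR2 share, 2 maternal copies for 1 paternal copy would give 67.5% and the reverse 34.2%. F KSR4 had 65.9, 65.8 and 56.4%, with a mean of 62.7% ± 5.45 (SD, n = 3). M KSR3 had 65.6, 65.1 and 65.0%, with a mean of 65.2% ± 0.320 (SD, n = 3). All 6 libraries of these lines lay above all F KSR2 and MEF libraries, and F KSR4 replicate 3, which had the lower level, also had the lower share. In M KSR5 the share was 49.0, 49.7 and 52.2%, with replicates 1 and 2 below and replicate 3 above the F KSR2 libraries. TX 2i had 52.4, 54.4 and 57.3%, all above F KSR2 and all below M KSR3. The 95% Wilson intervals, which cover counting error only, were narrow: 65.6 to 66.1% in F KSR4 replicate 1, 56.2 to 56.7% in F KSR4 replicate 3 and 48.7 to 49.2% in M KSR5 replicate 1. The autosomes without a known imbalance lay between 49.8 and 54.5% in all 18 libraries. The ratio of maternal to paternal reads, relative to the F KSR2 ratio, was 1.86, 1.85 and 1.25 in F KSR4, 1.79 to 1.83 in M KSR3, 0.922, 0.948 and 1.05 in M KSR5, and 1.06, 1.14 and 1.29 in TX 2i.

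**Figure D3:**
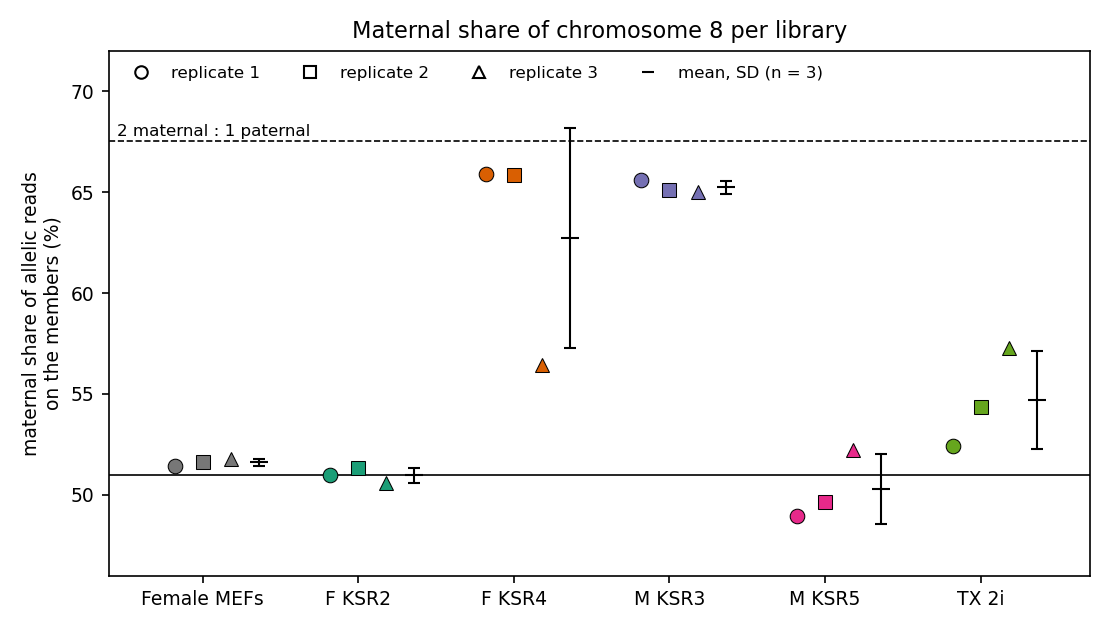
Maternal (BL6) share of the allelic reads on the 534 members (%, vertical axis, not starting at 0) in each of the 18 libraries, with the mean and SD of each group; the solid line is the F KSR2 share and the dashed line what 2 maternal copies for 1 paternal copy would give. M KSR3 and 2 libraries of F KSR4 lie at 65.0 to 65.9%, F KSR4 replicate 3 at 56.4%, M KSR5 at 49.0 to 52.2% and TX 2i at 52.4 to 57.3%.

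By allele, the maternal reads alone were higher in F KSR4 and M KSR3, and the reads of both alleles in TX 2i. The level per allele is the log2 of the maternal, or paternal, reads of the members over the same reads of other autosomes, relative to F KSR2. Because chromosome 6 of F KSR2 held 93.2 to 98.6% maternal reads, which shifts that baseline, values against the autosomes without a known imbalance are given, a baseline chosen after the data had been seen, with the values against all other autosomes after them. The maternal allele of F KSR4 stood at 1.00, 0.82 and 0.33 (1.03, 0.91 and 0.40 against all other autosomes), where a doubling would give 1. Its paternal allele stood at 0.08, -0.11 and -0.00 (0.01, -0.12 and -0.04), around the F KSR2 libraries at -0.06 to 0.05. In M KSR3 the maternal allele stood at 0.90, 0.93 and 0.92 (0.78, 0.82 and 0.82) and the paternal allele at 0.01, 0.05 and 0.06 (-0.06, -0.01 and -0.01). TX 2i had a maternal level of 0.61, 0.62 and 0.64 (0.70, 0.72 and 0.71) that was alike in its 3 libraries, beside a paternal level of 0.50, 0.39 and 0.22 (0.33, 0.25 and 0.08) that was not. In M KSR5 the paternal level was 0.31, 0.35 and 0.01 (0.24, 0.29 and -0.05) and the maternal level 0.20, 0.28 and 0.08 (0.20, 0.28 and 0.12), so that both alleles were higher than in F KSR2 in replicates 1 and 2. No line showed a shift of the paternal allele alone.

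**Figure D4:**
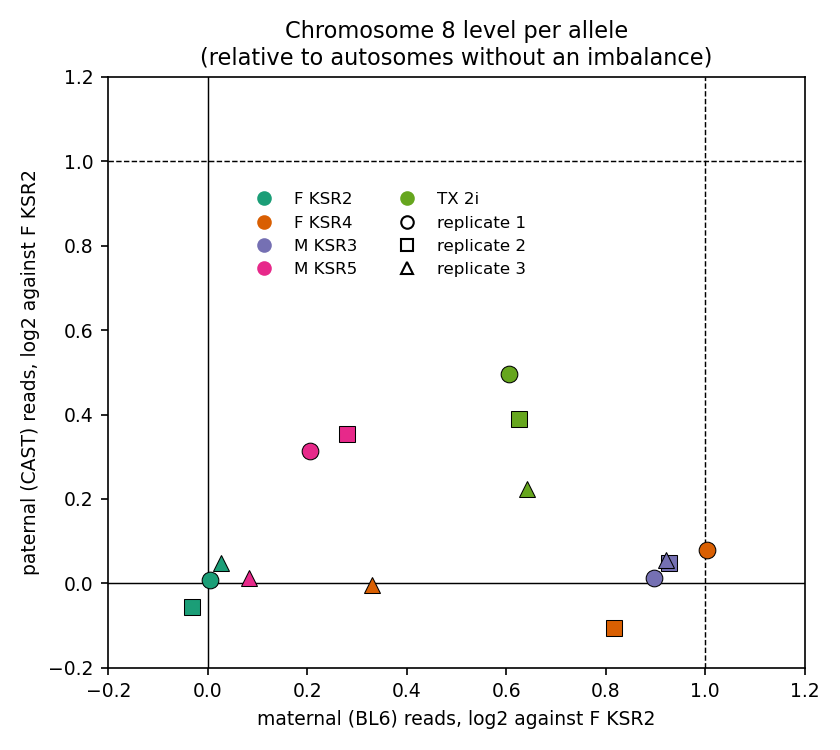
Level of the paternal (vertical axis) against the maternal allele (horizontal axis) of chromosome 8, both as log2 of the summed reads of the members over those of the autosomes without a known imbalance, relative to the F KSR2 mean; each point is a library and dashed lines mark a doubling. F KSR4 and M KSR3 spread along the horizontal axis up to 1.00, whereas TX 2i and replicates 1 and 2 of M KSR5 lie off both axes.

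Along the chromosome, nearly all windows lay above 0 in F KSR4, M KSR3 and TX 2i. The members run from position 3150922 to 129253597 of chromosome 8 (GRCm38), and 12 of 13 windows of 10 Mb held at least 10 members, from 20 to 82; the window from 50 to 60 Mb held 9 and was left out. All 12 windows lay above 0 in every library of M KSR3, with levels of 0.32 to 0.67, and of TX 2i, with 0.27 to 0.75. In F KSR4 all 12 did so in replicates 1 and 3, the latter at 0.03 to 0.35, and 11 in replicate 2, where the window starting at 30 Mb stood at -0.04. M KSR5 had 12, 11 and 8 windows above 0 in its 3 libraries. The F KSR2 libraries themselves had 7, 3 and 7, with levels from -0.16 to 0.11. M KSR5 replicate 3, at -0.12 to 0.12, was therefore not set apart from the reference, nor were the lowest windows of F KSR4 replicate 3. By maternal share, every window of F KSR4 and M KSR3 lay above the F KSR2 mean of that window, by 11.7 to 23.8 percentage points in M KSR3 and in replicates 1 and 2 of F KSR4 and by 3.14 to 7.41 in F KSR4 replicate 3. In TX 2i the difference ran from -0.31 to 3.90 points in replicate 1, 1.66 to 5.16 in replicate 2 and 1.29 to 9.90 in replicate 3. In M KSR5, 0, 1 and 11 of the 12 windows lay above the F KSR2 mean. Single F KSR2 libraries differed from that mean by -2.24 to 3.34 points, with 6, 8 and 5 windows above it. M KSR5 replicate 3, at -0.03 to 2.68 points, lay within that spread, and TX 2i replicate 1 passed it only at its upper end.

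**Figure D5:**
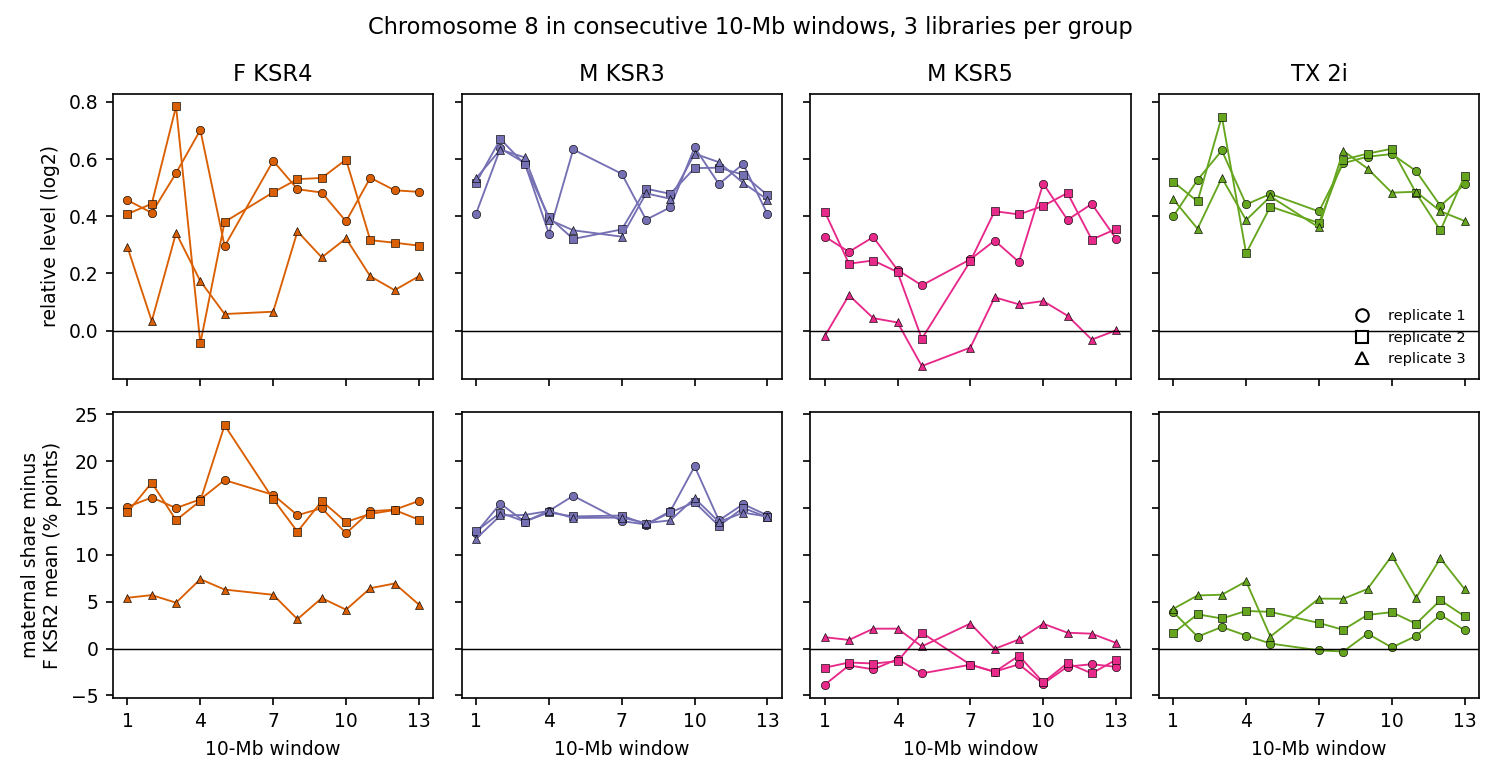
Chromosome 8 in consecutive windows of 10 Mb, numbered from its start (horizontal axis); the upper row shows the relative level (log2) and the lower row the maternal share minus the F KSR2 mean of the window (percentage points), with a line for each of the 3 libraries of a group. In M KSR3 and TX 2i all 12 windows lie above 0 in the upper row, in M KSR5 12, 11 and 8 do, and the window with 9 members is not drawn.

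Single genes showed the allelic shift as well. Of the 534 members, 430 had at least 20 allelic reads in each of the 15 pluripotent libraries, and a member was counted where its maternal share in all 3 libraries of a line lay above, or below, all 3 F KSR2 libraries. In M KSR3, 365 of the 430 members (84.9%) were above, against 21.9% of the 7316 autosomal genes with as many reads, and in F KSR4 257 (59.8%) against 10.3%. In TX 2i, 89 (20.7%) were above against 9.14%, and in M KSR5 24 (5.58%) against 9.55%. No member was below in F KSR4 or M KSR3, where 9.99% and 12.2% of all genes were, whereas 36 members (8.37%) were below in M KSR5 against 10.4% and 12 (2.79%) in TX 2i against 21.0%. Chromosomes with an imbalance of their own are part of these backgrounds, and over the 4155 genes of autosomes without one the shares above were 8.64% for TX 2i, 7.24% for M KSR3, 6.79% for M KSR5 and 5.66% for F KSR4, and the shares below were 9.92% for TX 2i, 8.69% for M KSR3, 5.90% for M KSR5 and 5.75% for F KSR4. The F KSR2 libraries are shared by these comparisons, and no p-value is attached to the counts.

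The members with the most allelic reads show the size of the shift per gene. Lamp1, a lysosomal membrane protein, had a maternal share of 52.2, 51.5 and 51.5% in F KSR2, 66.5, 68.4 and 56.2% in F KSR4 and 67.6, 65.5 and 66.9% in M KSR3. The same gene had 50.9, 49.2 and 53.5% in M KSR5 and 51.8, 56.8 and 56.4% in TX 2i. Slc7a5, a subunit of an amino acid transporter, followed it with 52.7, 53.6 and 48.8% in F KSR2, 69.4, 69.3 and 59.6% in F KSR4 and 66.8, 66.9 and 68.0% in M KSR3. Rpl13, a protein of the large ribosomal subunit, leaned to the paternal allele in F KSR2 (40.2, 41.6 and 40.0%) and in MEFs (39.6 to 42.2%), and moved to 57.1, 57.5 and 47.5% in F KSR4 and 53.7 to 55.4% in M KSR3. The shift thus came on top of each gene's own allelic balance. Itgb1, the integrin beta 1 chain, had 56.9 to 62.0% in F KSR2, 71.2, 75.7 and 62.7% in F KSR4, 64.3 to 66.5% in M KSR3 and 49.1 to 55.5% in M KSR5. Mt1, a metallothionein that binds zinc, was the exception among these genes, with 37.4, 20.5 and 41.3% in F KSR2 and 54.8, 48.2 and 29.9% in F KSR4, so that its own spread was as wide as the shift. Got2 had 74.4 to 75.3% in F KSR2, with F KSR4 at 81.7 to 86.0% and M KSR3 at 83.5 to 84.6%, and in M KSR5 it stood at 65.3 and 67.1% in replicates 1 and 2 but at 77.6% in replicate 3. Slc25a4 and Coq9 had at most 7 allelic reads in any library, which allows no statement on their alleles.

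The difference of replicate 3 from the other libraries of a line, singled out after its value was seen, was likewise spread over many members. In M KSR5, 358 of 534 members (67.0%) had their lowest relative level in replicate 3, against 39.5% of the genes of the other autosomes, and in F KSR4 251 (47.0%) against 30.9%. For M KSR3 and TX 2i the shares were 27.9% against 29.8% and 36.7% against 31.3%. By maternal share, 356 of 430 members (82.8%) were lowest in replicate 3 of F KSR4, against 32.3% of other autosomal genes with as many reads. In M KSR5, 261 (60.7%) were highest in replicate 3 against 33.4%, and in TX 2i 260 (60.5%) against 33.5%. Replicates carry no order, and passage numbers or dates of the libraries were not used here.

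Gene by gene, the libraries of a line were compared in limma, fitted to the 13829 genes with a level above 0 in at least 3 of the 15 pluripotent libraries, at a Benjamini-Hochberg adjusted p of 0.05. Since chromosome 8 was picked for its levels, the counts describe the members and are no evidence for the shift. Between M KSR3 and F KSR2, 104 of 534 members were higher (5.16% of all genes were) and 3 lower (4.18%). Between TX 2i and F KSR2, 102 were higher (5.80%) and 4 lower (5.48%). Between F KSR4 and F KSR2, 6 were higher (0.383%) and 0 lower (0.318%), and between M KSR5 and F KSR2 3 were higher (0.969%) and 0 lower (1.37%). By limma voom on the recovered reads, 0 members were likewise lower in F KSR4 and M KSR5 at an adjusted p under 0.05. At an unadjusted p under 0.05, limma had 95 members higher and 9 lower in F KSR4 and 64 higher and 4 lower in M KSR5. Of all 13829 genes tested, 680 were higher in F KSR4 and 834 in M KSR5 at that unadjusted p, and the genes lower at it were not counted. Between M KSR3 and M KSR5, 14 members were higher and 1 lower in M KSR3, with 1.63% of all genes in each direction. The comparisons with F KSR2 share its 3 libraries.

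In F KSR4 and M KSR5, where few members were called, 395 and 432 of the 534 had a positive difference, against 480 in M KSR3 and 461 in TX 2i. The median log2 difference of the members was 0.52 for M KSR3, 0.48 for TX 2i, 0.25 for M KSR5, 0.22 for F KSR4 and 0.28 between M KSR3 and M KSR5. In F KSR4 the median of all genes tested was -0.15. Centred on the autosomes without a known imbalance, the F KSR4 members had a median of 0.39 and 19 were called higher, and of all calls of that comparison 82.8% were higher in place of 54.6%. Single libraries decided many calls: without F KSR4 replicate 1 the F KSR4 count was 34 higher and 7 lower, without F KSR4 replicate 3 it was 12, without F KSR2 replicate 3 it was 3 and without F KSR2 replicate 1 or 2 it was 0. The M KSR5 count was 11 without M KSR5 replicate 3, 1 without F KSR2 replicate 3 and 0 without any other library of either line. The M KSR3 count fell to 29 without M KSR3 replicate 2 or 3 and to 55, 59 and 64 without F KSR2 replicates 3, 2 and 1. That of TX 2i fell to 48, 54 and 60 without TX 2i replicates 2, 3 and 1 and to 58 and 62 without F KSR2 replicates 1 and 2. Between M KSR3 and M KSR5, 1 member was called without M KSR3 replicate 2 or 3, 9 without M KSR3 replicate 1, and 4, 3 and 8 without M KSR5 replicates 1, 2 and 3. Without each of the 6 libraries in turn, 27 of the 104 members stayed called higher in M KSR3 and 32 of the 102 in TX 2i, 0 of 6 in F KSR4, 0 of 3 in M KSR5 and 1 of 14 between M KSR3 and M KSR5, which was Vps35 of the retromer complex (difference 0.96, limma adjusted p = 0.00509), and no called member changed sign.

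Grouped by function, in lists drawn up with earlier results of these data known, calls are read against all 534 members, of which 19.5% were higher in M KSR3 and 19.1% in TX 2i, and against all genes tested, of which 5.16% and 5.80% were. Positive differences are read against all 534 members, of which 480 were positive in M KSR3, 461 in TX 2i, 395 in F KSR4 and 432 in M KSR5. Their number over all genes tested was not counted. No list was tested against the other members. Of the 7 mitochondrial members, 5 were higher in M KSR3 and 4 in TX 2i than in F KSR2, and all 7 had a positive difference in each of the 4 lines, with medians of 0.75 for M KSR3, 0.68 for TX 2i, 0.54 for F KSR4 and 0.40 for M KSR5. Slc25a4 stood at 7.78, 7.76 and 7.48 in F KSR2, 8.22, 8.03 and 8.72 in F KSR4, 8.80, 9.39 and 9.37 in M KSR3, 8.10, 8.18 and 8.08 in M KSR5, and 8.72, 8.85 and 8.94 in TX 2i. Every library of the other lines lay above every F KSR2 library. By limma the gene rose by 1.51 in M KSR3 (standard error 0.20, adjusted p = 0.000383) and by 1.16 in TX 2i (standard error 0.20, adjusted p = 0.00171), both kept without any single library. The difference was 0.65 in F KSR4 (adjusted p = 0.146) and 0.45 in M KSR5 (adjusted p = 0.369). Got2 stood at 6.94, 7.20 and 6.71 in F KSR2, 8.20, 8.06 and 8.02 in M KSR3 and 7.99, 7.94 and 7.21 in M KSR5, and rose in M KSR3 by 1.15 (standard error 0.21, limma adjusted p = 0.00369). Coq9, at 4.21, 4.40 and 4.31 in F KSR2 and 5.48, 5.62 and 5.64 in M KSR3, rose there by 1.27 (standard error 0.21, limma adjusted p = 0.00176). Ndufb7, a subunit of respiratory complex I, and Timm44, of the mitochondrial import motor, completed the calls in M KSR3 with 0.68 and 0.75.

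Genes of DNA replication and repair gave 4 calls of 16 members in M KSR3 and 4 in TX 2i, near the share of all members in both, and 16 of 16 had a positive difference in both. Gins2 and Gins4, subunits of the replicative helicase complex, rose by 0.83 and 1.01 in M KSR3, with Gins4 at 5.57, 5.49 and 5.77 in F KSR2 and 6.33, 6.77 and 6.75 in M KSR3. The histone chaperone Asf1b rose by 1.01 in M KSR3 and 0.98 in TX 2i. In TX 2i the helicase subunit Mcm5 rose by 0.73, from 8.22, 8.39 and 8.54 in F KSR2 to 9.25, 8.95 and 9.13. Acd, a subunit of the telomere-binding shelterin complex, was the member of this list that rose in F KSR4, by 0.86, with 4.83, 4.72 and 4.92 in F KSR2 and 5.61, 5.69 and 5.76 in F KSR4. Of 10 cell cycle and cell death members, 3 were higher in M KSR3 and 2 in TX 2i. Tfdp1, the partner of E2F factors, rose by 1.01 in M KSR3 (limma adjusted p = 0.0164), from 7.07, 7.27 and 7.02 to 8.24, 8.07 and 8.09, and Haus8, a subunit of the augmin complex of the spindle, by 0.69 in M KSR3 and 0.94 in TX 2i.

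Of the 18 chromatin and transcription members, 6 were higher in M KSR3, and 6 were higher and 1 lower in TX 2i. Ash2l, a core subunit of histone H3 lysine methyltransferase complexes, stood at 8.60, 8.73 and 8.50 in F KSR2 and 9.45, 9.62 and 9.63 in M KSR3 (difference 0.96, limma adjusted p = 0.00186), and Brd7, a subunit of a SWI/SNF complex, rose by 0.98 in M KSR3. In the ribosome, translation and RNA decay list of 13, 3 members were higher in M KSR3, 2 in TX 2i and 2 in F KSR4. Of these 13 differences, 13, 12 and 13 were positive in M KSR3, M KSR5 and TX 2i and 8 in F KSR4. Of the 15 members for the proteasome, chaperones and stress, 2 were called in TX 2i, Nqo1 and Prdx2, and 0 in the other comparisons with F KSR2. By limma voom at an adjusted p under 0.05, 0, 1 and 0 were higher in F KSR4, M KSR3 and M KSR5. By limma at an unadjusted p under 0.05, 3, 6 and 2 were higher there. At that unadjusted p, 95, 252 and 64 of all 534 members were higher in F KSR4, M KSR3 and M KSR5. Of all 13829 genes tested, 680, 1861 and 834 were. Of the 9 signalling members, 6 were higher in TX 2i and 1 in M KSR3. Fgfr1, a receptor for fibroblast growth factors, stood at 6.32, 6.23 and 6.19 in F KSR2 and above that in all 12 libraries of the other lines, at 6.51 to 7.47, and rose in TX 2i by 1.09 (standard error 0.20, limma adjusted p = 0.00313).

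The members with a role in pluripotency and the early embryo gave no calls. Of 7 such members, limma called 0 in any of the 5 comparisons, as did voom, and their median difference from F KSR2 was 0.30 for TX 2i, 0.15 for M KSR3, 0.12 for F KSR4 and 0.08 for M KSR5. Of all members, 19.5% were called higher than in F KSR2 in M KSR3, 19.1% in TX 2i, 1.12% in F KSR4 and 0.562% in M KSR5. Of all genes tested, 5.16%, 5.80%, 0.383% and 0.969% were. A list of 7 is too small to set 0 calls apart from these shares. At an unadjusted p under 0.05, limma had 1 lower in F KSR4, 1 lower in M KSR3 and 1 higher in TX 2i, and 2 in each direction between M KSR3 and M KSR5. Of all 534 members, 9 were lower in F KSR4, 10 lower in M KSR3 and 238 higher in TX 2i at that unadjusted p. Between M KSR3 and M KSR5, 108 were higher and 15 lower. Of all 13829 genes tested, 1838 were higher in TX 2i than in F KSR2 at that p. In M KSR3, 1285 were higher than in M KSR5, and the genes lower at it were not counted. Zfp42, the pluripotency marker also named Rex1, stood at 8.37, 7.62 and 8.48 in F KSR2, 8.03, 7.17 and 7.32 in F KSR4, 8.16, 8.41 and 8.46 in M KSR3, 8.35, 7.77 and 8.38 in M KSR5, and 8.61, 8.29 and 8.80 in TX 2i. The range of each of the other lines overlapped with that of F KSR2. Cdh1, the epithelial E-cadherin, had 8.44, 8.64 and 8.68 in F KSR2 and 8.39, 7.91 and 7.85 in M KSR3, a difference of -0.54 (limma adjusted p = 0.258), although chromosome 8 was higher there. Klf2, a naive pluripotency factor, ranged from 7.01 to 8.99 among the F KSR2 libraries, which was wider than the difference of any line from it.

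Among the members higher in F KSR4 were Hsbp1, Camsap3 and Acd. Hsbp1, which binds heat shock factor 1, stood at 5.90, 5.82 and 6.19 in F KSR2 and 6.48, 7.41 and 7.38 in F KSR4 (difference 1.12, limma adjusted p = 0.043). Within F KSR4 it was lowest in replicate 1, where chromosome 8 as a whole was highest. Camsap3, which binds microtubule minus ends, stood at 5.89, 5.85 and 5.80 in F KSR2 and 6.87, 6.67 and 6.71 in F KSR4 (difference 0.90, limma adjusted p = 0.0333), and lay above F KSR2 in every library of the other lines too.

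In M KSR3 the largest increases were well over the 0.58 of an added copy. Clgn, a chaperone of the endoplasmic reticulum best known from the testis, stood at 2.46, 2.95 and 3.47 in F KSR2 and 5.99, 5.39 and 5.44 in M KSR3, a difference of 2.65 (standard error 0.50, limma adjusted p = 0.00381). Necab2, a calcium-binding protein, rose by 2.12 in M KSR3, from 2.36, 3.08 and 3.23 to 5.01, 5.06 and 4.96, and by 1.58 in M KSR5 (4.44, 4.94 and 4.02). Col4a1 and Col4a2, neighbouring genes for basement membrane collagen chains that are transcribed in opposite directions, rose together: Col4a1 stood at 6.22, 5.33 and 7.13 in F KSR2 and 8.18, 8.13 and 8.23 in M KSR3 (difference 1.95, limma adjusted p = 0.00715), and Col4a2 at 5.32, 4.23 and 6.17 and 7.12, 6.96 and 7.09 (difference 1.82, limma adjusted p = 0.0163). Both are high in MEFs, with Col4a1 at 9.83 to 10.10, while the fibroblast marker sum of M KSR3 was 0.107 to 0.241% of the MEF level and its germ layer marker sum was above the F KSR2 mean. The part of such cells in these values was not tested. Klhl26, of unclear function, rose by 1.84. The 3 members that fell were D8Ertd82e, by 1.82 on the log2 scale (limma adjusted p = 0.00369), from 4.46, 4.81 and 4.87 to 3.62, 2.62 and 2.44, Tbc1d9, by 1.70, and Gm10664, by 1.37, whose row overlaps those of Trim60 and Trim61.

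The 3 members higher in M KSR5 than in F KSR2 were Necab2, Ndrg4 (difference 1.25, limma adjusted p = 0.0494) and Gab1 (0.93, limma adjusted p = 0.0458). Gab1, an adaptor that links receptor tyrosine kinases to downstream signalling, stood at 7.32, 6.82 and 7.20 in F KSR2, 8.19, 8.24 and 7.71 in M KSR5 and 8.62, 8.65 and 8.59 in M KSR3. None of the 3 calls was kept when each library was left out. Between M KSR3 and M KSR5, Col4a1 and Col4a2 were higher in M KSR3 by 2.05 and 1.80, Cd97, an adhesion receptor, by 1.50, Lpl by 1.49 and Hydin, an axonemal protein of cilia, by 1.43. D8Ertd82e was the member lower in M KSR3, by 1.65. Cd97 stood at 6.70, 7.15 and 7.19 in M KSR3 and 5.75, 5.37 and 5.41 in M KSR5 (limma adjusted p = 0.013), with F KSR2 at 5.72 to 5.96.

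In TX 2i the largest increases were those of Lpl, Mmp15, 2610019F03Rik, Sfrp1 and Nqo1. Lpl, the lipoprotein lipase, rose by 2.70 (standard error 0.32, limma adjusted p = 9.22e-05), from 3.67, 3.73 and 3.91 in F KSR2 to 6.62, 6.72 and 6.05. Mmp15, a membrane-bound matrix protease, rose by 1.83, from 2.75, 2.60 and 3.47 to 4.72, 4.79 and 4.80, and 2610019F03Rik by 1.72. Sfrp1, a secreted antagonist of Wnt signalling, rose by 1.66 (limma adjusted p = 0.0397), with 6.65, 5.89 and 4.93 in F KSR2 and 7.60, 7.80 and 7.05 in TX 2i, and Nqo1, a quinone reductase, by 1.64 (limma adjusted p = 0.0234). Against the direction of the chromosome, Dusp4, a phosphatase for MAP kinases, fell by 3.17 on the log2 scale (limma adjusted p = 0.00344), from 4.58, 4.22 and 5.66 to 0.93, 3.08 and 0.93. Efnb2, an ephrin ligand, fell by 2.45 (limma adjusted p = 0.00182), Junb, an AP-1 transcription factor, by 1.51 (limma adjusted p = 0.0123), and Plcg2, a phospholipase C of immune signalling, by 0.98 (limma adjusted p = 0.0325). Medium and line cannot be told apart in this comparison.

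Few members stood above F KSR2 everywhere. In 21 of the 534 members (3.93%), every library of F KSR4, M KSR3, M KSR5 and TX 2i lay above every F KSR2 library, against 1.14% of the 8848 autosomal genes past the level rule. Beside Slc25a4, Got2, Coq9, Fgfr1 and Camsap3 these included Polr2c, a subunit of RNA polymerase II, Lsm4, of the U6 snRNA-binding ring, and Sap30, of the Sin3 corepressor complex. Lsm4 rose by 0.77 in M KSR3 and 0.67 in TX 2i and differed by 0.66 in F KSR4 and 0.53 in M KSR5. Polr2c rose in TX 2i by 0.96 (limma adjusted p = 0.00253), with 0.43, 0.55 and 0.40 in F KSR4, M KSR3 and M KSR5.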

How the data were processed

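RNA-seq of 18 libraries was used, and 82 samples of bisulfite amplicons were not analysed here. Reads were trimmed (Trim Galore) and aligned by the authors with HISAT2 2.1.0 against GRCm38. They assigned allelic reads to the CAST_EiJ or C57BL/6J genome, and quantified genes by strand in SeqMonk. The authors deposited log2 values, 4 columns per library, whose low values are whole multiples of 1 read whatever the gene length, so that they are log2 RPM. A gene without reads is held at 0.9 read. Reads were recovered, with 99.97 to 100% of values within 0.05 read of a whole number. Gene identifiers repeat in the table, so symbols were used. Groups come from the labels. The members and gene lists were chosen with earlier results of these data known.

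limma 3.58.1 (R 4.3.3, intensity trend) was fitted to the 15 pluripotent libraries with a mean per group, and p-values were adjusted over all 13829 genes. They set a difference against the spread between replicate samples of the same line, estimated jointly over the 15 libraries and not for each line alone. Genes were named by the functional lists, the 5 largest increases and 3 largest decreases per comparison among calls without overlap, the 2 members nearest the threshold on each side and the 5 with the most allelic reads; others are named where a count is 5 or fewer, or as examples of a count, after their values were seen. Some members that this rule names are not reported here. Replicate numbers were checked for pairing: deviations of same-numbered libraries correlated at 0.278, 0.226 and 0.191 between TX 2i and F KSR2, above 0.1 in each, and not so in the other comparisons; the labels name no shared batch. Shares have 95% Wilson intervals. The fit was tested on simulated counts with genes raised in F KSR4. Of 100 genes raised 1.5-fold, 32 were recovered, and of 100 raised 2-fold, 90, with 6 false calls. A change of the size of an added copy was thus mostly missed. The simulation gave every gene and library the same spread, unlike the measured libraries, so that recovery in the data themselves is not known. Python 3.11.15, numpy 2.4.6, pandas 2.3.3 and scipy 1.17.1 did the rest.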

Additional observations from a re-analysis of the deposited data

Results flagged for a closer look

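Some named members lay above all F KSR2 libraries in every library of a line and below all of them in every library of another. The mean relative level of chromosome 8 was higher than in F KSR2 in both such lines. In M KSR5 replicate 3 the relative level was 0.05, close to F KSR2. The differences of these members are given as log2 differences of the group means. Apart from those between M KSR3 and M KSR5, the difference between the lines was not tested.

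Lpl stood 3.78 higher in TX 2i, 2.14 higher in F KSR4 and 1.49 higher in M KSR3 than in M KSR5, the last with a limma adjusted p of 0.0201. Psmb10, a catalytic subunit of the immunoproteasome, stood 2.51 higher in M KSR3 and 2.47 higher in M KSR5 than in TX 2i, with 2.08 to 2.22 in the TX 2i libraries. Lamp1 stood 1.28 higher in F KSR4, 1.03 higher in M KSR3 (limma adjusted p = 0.0383) and 0.89 higher in TX 2i than in M KSR5. Hydin was 1.77 higher in M KSR3 than in F KSR4. Haus8 was 0.78 higher in M KSR3 and 1.03 higher in TX 2i than in F KSR4. Chd9, a chromatin remodelling protein, was 0.92 higher in M KSR3 than in TX 2i. Cdh1 was 0.71 and Jund, an AP-1 factor, 0.58 higher in TX 2i than in M KSR3.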

How the results depend on the processing

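The relative level kept its sign for F KSR4, M KSR3 and TX 2i in all settings; for M KSR5 it turned to -0.055 when the KSR-iPSC lines other than itself served as reference, where F KSR4 came to 0.14, M KSR3 to 0.28 and TX 2i to 0.24. M KSR3 was 0.49 and 0.50 with level cuts of 0 and 4, 0.54 against autosomes without a known imbalance and 0.46 by summed reads, TX 2i 0.49 by summed reads. Leaving out a library gave 0.33 to 0.47 for F KSR4, 0.48 to 0.51 for M KSR3, 0.18 to 0.31 for M KSR5 and 0.51 to 0.54 for TX 2i. The maternal share by the median gene was 51.8% in MEFs, 52.1% in F KSR2 and 66.6% in M KSR3, and without the 10 most read members 52.4, 51.9 and 65.9%; leaving out a library gave 65.1 to 65.3% in M KSR3, 61.1 to 65.9% in F KSR4, 51.5 to 51.7% in MEFs, 50.8 to 51.2% in F KSR2, 49.3 to 50.9% in M KSR5 and 53.4 to 55.8% in TX 2i. Against autosomes without a known imbalance, a baseline chosen after seeing the data, the mean maternal allele level was 0.91 in place of 0.81 in M KSR3 and 0.62 in place of 0.71 in TX 2i, and the mean paternal level 0.039 in place of -0.02 in M KSR3 and 0.37 in place of 0.22 in TX 2i.

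Members called higher in F KSR4 (6) were 2 with no filter, 12 with the replicate block, 19 centred on balanced autosomes and 0 with the 6 libraries alone, where fewer libraries set the spread. M KSR5 (3) gave 1 with no filter, 1 by limma voom, 6 with the replicate block and 7 with all 18 libraries. M KSR3 against M KSR5 (14) gave 8 with no filter, 23 with all 18 libraries and 82 with the 6 alone. With the 6 libraries alone M KSR3 (104) gave 242 and TX 2i (102) 184. The replicate block gave 124 in M KSR3, 127 in TX 2i and 17 between M KSR3 and M KSR5; 11 of 15 libraries correlated best with their own number. Leaving out a library gave 0 to 34 for F KSR4, 29 to 71 for M KSR3, 0 to 11 for M KSR5, 48 to 79 for TX 2i and 1 to 9 for M KSR3 against M KSR5. Other causes were not tested.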
